A study of Mus musculus with 9 samples.

Results

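The colonic mucosa of mice that bore tumors on a high-calcium diet was compared with the mucosa of the DMH control mice. The comparison uses 6 of the series' 9 arrays, chosen by sample title: 3 titled as high calcium with tumors and 3 titled as DMH. All were ICR mice, an outbred strain, and all received DMH (1,2-dimethylhydrazine), a colon carcinogen, at 20 mg/kg under the skin once a week for 20 weeks. The high-calcium mice ate a diet with 3% calcium and the DMH mice one with 1.24%, and the labels describe the tissue of every sample as normal colonic mucosa. For the DMH mice the tumor field of the labels reads just control, so diet and tumor bearing change together in this comparison and cannot be told apart. The 3 remaining arrays, high calcium without tumors, served to estimate the spread between arrays, to set values side by side and, at the end, for a comparison with the high-calcium tumor arrays. No label says that the 3 arrays of a group come from 3 mice, so the p-values measure no more than how these arrays vary, and that variation may be technical.

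DMH is converted in the body to a methylating agent that damages the DNA of colonic crypt cells, and tumors raised with it commonly carry an active Wnt pathway. Dietary calcium binds bile acids and fatty acids in the gut lumen, and absorbed calcium acts on epithelial cells through calcium channels, calcium-binding proteins and the vitamin D system. A strip of colonic mucosa holds surface and crypt epithelium, immune cells and fibroblasts of the lamina propria and a thin muscle layer, and a deeper cut adds outer muscle, nerve plexus and fat.

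Signals are given here as levels, the log2 signal of a gene's probe minus the 75th percentile of all non-control probes on the same array, so that a level of 0 equals that percentile. A difference is the mean level of the 3 high-calcium tumor arrays minus the mean level of the 3 DMH arrays, on the log2 scale, and a gene rose or fell where limma's adjusted p was under 0.05. By this rule 7839 of 21095 features, or 37.2%, differed: 4483 rose (21.3%) and 3356 fell (15.9%). The median size of a called difference was only 0.43, and 805 calls reached 2-fold, 453 higher and 352 lower. The share of calls in the higher direction depended on the scaling. It was 57.2% here, 37.8% with each array centred on its own median and 39.5% in the deposited value table, and the 2 scalings moved the median difference of all features by 0.13, from 0.08 to -0.05. Small rises are therefore read below against that shift. Median centring also set 1 array apart. It added 3.39, 3.38 and 2.92 to the levels of high-calcium tumor replicates 1, 2 and 3, and 3.30, 3.37 and 3.39 to DMH replicates 1, 2 and 3. That moved high-calcium tumor replicate 3 against its group in every gene. Falls lost calls too: mitosis falls went from 17 to 5 while their median went from -0.41 to -0.53. A call lost with median centring is thus not a sign of the shift alone. The 15 epithelial identity genes summed to 10.68 to 10.73 on the high-calcium tumor arrays and to 10.46 to 10.66 on the DMH arrays, with 2 genes higher and 2 lower.

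The arrays were unevenly spread over slides, the glass supports that hold several arrays each. Slide 2 held high-calcium tumor replicates 1 and 2 with DMH replicates 2 and 3, slide 1 held DMH replicate 1 with the arrays without tumors, and slide 3 held high-calcium tumor replicate 3 alone. Within slide 2, taken from a fit of all 9 arrays with slide as a block, 5131 features (24.3%) were higher and 3955 (18.7%) lower, and 6875 of the 7839 calls, or 87.7%, were also called there in the same direction. That count is not independent, since the arrays of slide 2 are 4 of the 6. High-calcium tumor replicate 3 stood apart from the other two: 2876 features differed at least 2-fold between it and replicate 1, against 200 between replicates 1 and 2. DMH replicate 1, also off slide 2, differed at least 2-fold from DMH replicate 2 in 1175 features, against 445 between DMH replicates 2 and 3. Slide and sample cannot be told apart for these 2 arrays, so the difference within slide 2 is given wherever it moves a result. A fit of the 4 arrays of slide 2 alone gives the same differences with its own estimate of spread, and its adjusted p is printed where the block fit loses a call.

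Gene lists for cell types and pathways were read from the same fit by counting their members. Every such count is to be read against the 21.3% higher and 15.9% lower among all features. The widest shifts up were in smooth muscle genes, where all 14 tested rose with a median difference of 1.23, and circadian clock genes, where 10 of 20 rose, 3 fell and the median was 0.94. Enteric neuron and glia genes followed with a median of 0.77 (8 of 12 higher), then fibroblast and matrix genes with 0.62 (15 of 20 higher, 1 lower). The widest shifts down were in fat cell genes, where 10 of 14 fell and the median was -1.63, mast cell genes (5 of 10 fell, 1 rose, median -0.88) and genes of neutrophil recruitment and acute inflammation (15 of 26 fell, 5 rose, median -0.74). B and plasma cell genes (14 of 17 lower) and mitosis genes (17 of 24 lower) fell by less, with medians of -0.47 and -0.41. With each array centred on its median, only 3.97% of all features were called higher and 6.53% lower, and every median-centred count here is to be read against those shares. The same counts were then 13 of 14 smooth muscle, 10 and 3 of 20 clock, 3 of 12 enteric neuron, 6 of 20 matrix, 10 of 14 fat cell, 5 of 10 mast cell, 1 and 14 of 26 inflammation, 8 of 17 B and plasma cell and 5 of 24 mitosis genes.

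**Figure D1:**
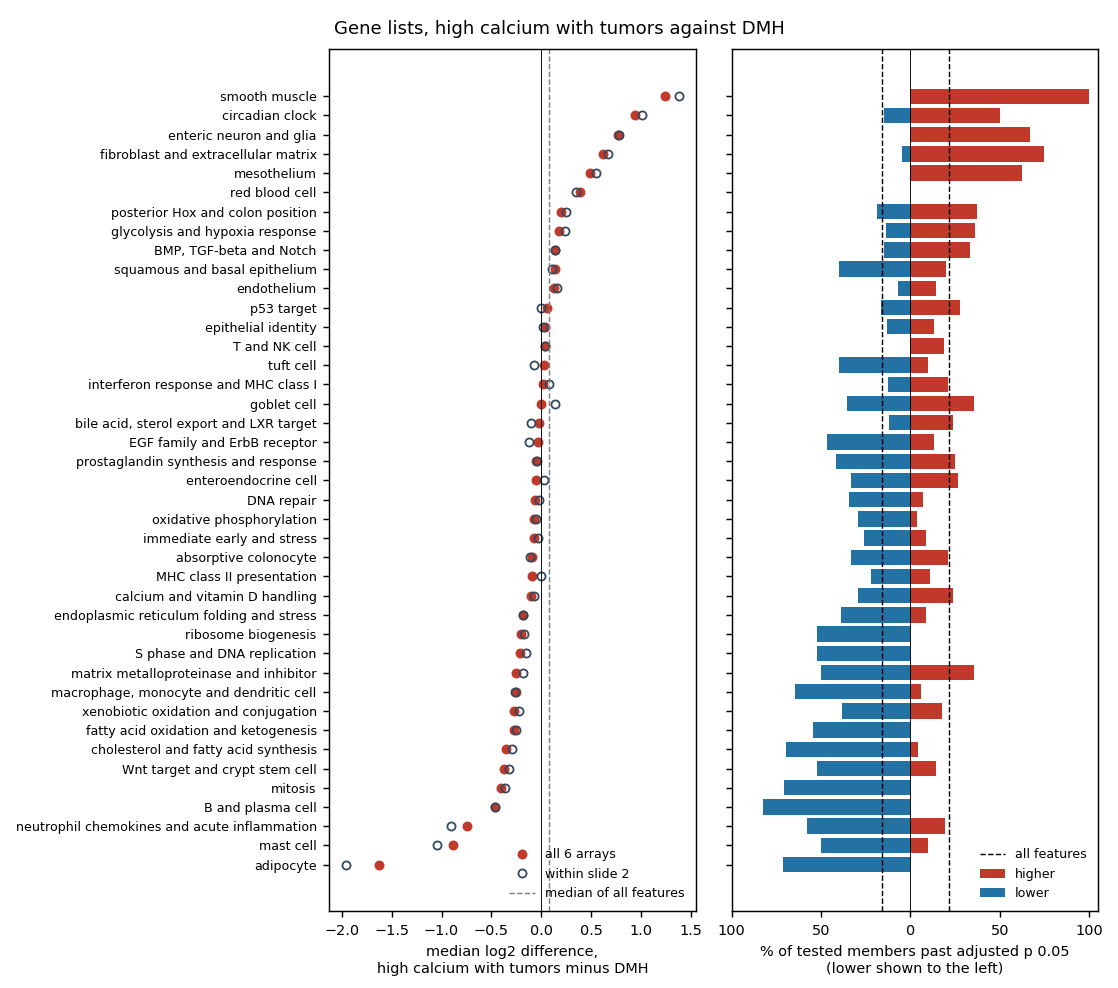
Median log2 difference of each gene list over all 6 arrays (filled) and within slide 2 (open), beside the percentage of its tested members that rose (right) or fell (left); dashed lines give the median of all features and the 21.3% and 15.9% called among all features. Smooth muscle, circadian clock and matrix lists lie far to the right, and fat cell, mast cell and inflammation lists far to the left, in both estimates.

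Contractile smooth muscle genes were uniformly higher in the high-calcium tumor mucosa. Synm, which encodes the intermediate filament protein synemin, stood at 1.73, 2.22 and 1.85 in the high-calcium tumor arrays and at 0.85, 0.36 and -0.06 in the DMH arrays. Its difference was 1.55 ± 0.23 (SE, n = 3 and 3; 2.92-fold, adjusted p 0.00203), and the 2 groups did not overlap, which was so for 49.6% of all features. Cnn1, encoding the actin-binding calponin, was at 7.06, 7.42 and 7.11 against 6.26, 5.8 and 5.45 and rose 2.57-fold (adjusted p 0.0021). Tagln, encoding the actin-binding transgelin, rose 2.46-fold from 6.89, 6.38 and 5.95 to 7.54, 8.03 and 7.55. Acta2, the smooth muscle actin gene, rose 2.04-fold and Myh11, the smooth muscle myosin heavy chain gene, rose 2.22-fold. In each of these genes DMH replicate 1 was the highest of the DMH arrays and replicate 3 the lowest, so the difference within slide 2 was larger than over all 6 arrays (for Tagln 1.62). Myocd, the transcriptional coactivator of the smooth muscle program, was 3.14-fold higher (-3.4, -3.01 and -3.05 against -4.66, -4.77 and -4.99) at low signal. After a model-based background correction (normexp) its difference was 0.58 and no longer called (adjusted p 0.0687). The second Myocd probe showed no rise (-0.02, adjusted p 0.98 in a fit of every probe). The summed signal of the 14 muscle genes ranged from 9.56 to 9.96 on the high-calcium tumor arrays and from 8.20 to 9.0 on the DMH arrays. In bulk tissue like this, more cells of a type and more RNA per cell cannot be told apart, and whether the depth of the dissection differed between the groups was not tested.

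Matrix and fibroblast genes rose alongside, with less spread between replicates. Fn1, encoding fibronectin, was at 2.43, 2.4 and 2.25 in the high-calcium tumor arrays and 1.33, 1.05 and 1.09 in the DMH arrays, a difference of 1.21 ± 0.09 (adjusted p 0.000184). Vim, the vimentin gene of mesenchymal cells, rose 1.94-fold (4.77, 4.74 and 4.76 against 3.76, 3.84 and 3.8; adjusted p 0.000219). The collagen genes Col1a1 and Col3a1 rose 1.73-fold and 1.58-fold, Postn (periostin) 1.91-fold, Tnc (tenascin C) 1.9-fold and Lum (lumican) 1.73-fold. The summed signal of the 20 genes was tight within each group, 8.02 to 8.09 against 7.45 to 7.57. Only 6 of the 15 rises held with median centring, and those of Col1a2 and Col3a1 did not (adjusted p 0.222 and 0.0563). In the high-calcium arrays without tumors Col1a1 was lower than in either group, at 3.38, 3.31 and 3.31, while Vim at 3.77, 3.87 and 3.57 was close to the DMH arrays.

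Several secreted antagonists of Wnt and BMP signals rose, but not the group as a whole: the Wnt inhibitor genes Wif1, Dkk2 and Notum fell, and the BMP antagonist genes Nog and Chrd did not pass (0.10 and 0.33; adjusted p 0.872 and 0.35). Sfrp4, which encodes a secreted Frizzled-related protein that binds Wnt ligands, was at -0.26, -0.34 and -0.21 in the high-calcium tumor arrays and at -2.3, -2.38 and -2.48 in the DMH arrays, 4.34-fold apart (2.12 ± 0.07; adjusted p 8.37e-06). The arrays without tumors, at -2.64, -2.48 and -2.59, lay with the DMH arrays. Sfrp1, its paralog, was picked after its values were seen and rose 2.24-fold (adjusted p 4.93e-05). Of the BMP antagonists, Chrdl1 (chordin-like 1) rose 2.83-fold (-0.48, -0.43 and -0.62 against -1.9, -2.03 and -2.09; adjusted p 5.53e-05) and Grem1 (gremlin 1) 3.45-fold. Grem1 was dim, well above background on 3 and 2 arrays, and its difference was 0.6 after normexp. The ligand gene Bmp2 rose 1.34-fold, but not with median centring (adjusted p 0.323). In the whole BMP, TGF-beta and Notch list 9 of 27 genes rose and 4 fell, beside 21.3% and 15.9% of all features. With median centring 3 rose and 2 fell.

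Many genes of enteric neurons and some of the serosal lining also moved upward. Vip, encoding the neuropeptide VIP, was at 1.28 and 1.31 on the 2 high-calcium tumor arrays with a usable spot and at -0.48, -0.31 and -0.31 on the DMH arrays, 3.17-fold apart (adjusted p 0.000158). Tac1, the gene of substance P, rose 2.47-fold (1.3, 1.5 and 1.5 against 0.19, 0.15 and 0.06; adjusted p 0.00043). Penk, the enkephalin precursor gene, was picked after its values were seen. It rose 3.22-fold, from 1.59, 1.49 and 1.43 to 3.05, 3.28 and 3.25. The neuron gene Tubb3 and the glia gene Gfap were called over all 6 arrays (adjusted p 0.0364 and 0.0238) but not within slide 2 by the block fit (adjusted p 0.0519 and 0.104; 0.0248 and 0.0126 on the slide 2 arrays alone). Both also lost their calls without high-calcium tumor replicate 2 or 3 or DMH replicate 2 or 3 (adjusted p 0.0503 to 0.112), and Gfap without DMH replicate 1 (adjusted p 0.0611). Of 12 enteric neuron and glia genes 8 rose. Within slide 2 the median was also 0.77, with 2 called by the block fit and 9 on the slide 2 arrays alone, and 3 rose with median centring; their summed signal was 2.8 to 3.25 against 2.0 to 2.34. Among mesothelium genes 5 of 8 rose (2 with median centring). Their summed signal overlapped, at 7.75 to 7.82 on the high-calcium tumor arrays and 7.54 to 7.81 on the DMH arrays. Upk1b, a uroplakin gene, rose 2.13-fold (adjusted p 0.000243), or by 0.65 on the log2 scale after normexp. Wt1, a transcription factor gene of the mesothelium, stayed below the limit of clear detection (well above background) on all DMH arrays. It was at least 2.64-fold higher in the high-calcium tumor arrays (-3.93, -4.02 and -4.12 against -6.65, -6.42 and -6.0; adjusted p 0.000772), and its normexp difference of 0.46 lies below that bound.

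Fat cell genes had the widest shift down of the lists, with 10 of 14 lower. The other 4 did not pass: Cfd, Lipe, Plin4 and Pnpla2 differed by -3.79, -0.11, 0.27 and 0.32. Other probes of Lipe and Pnpla2 differed by -0.67 and -0.21 (adjusted p 0.00215 and 0.0395 in a fit of every probe). Adipoq, the adiponectin gene, was at 0.96, 0.86 and 1.05 in the DMH arrays and at -4.41, -4.36 and -1.71 in the high-calcium tumor arrays. The difference was -4.45 ± 0.83 (21.9-fold; adjusted p 0.00512), and replicate 3 lay between the other 2 high-calcium tumor arrays and the DMH arrays. Car3, a carbonic anhydrase abundant in fat, behaved alike at -2.71, -2.58 and -0.22 against 2.12, 2.07 and 2.28 and fell 15.9-fold (adjusted p 0.00437). Plin1, which coats the fat droplet, fell 9.29-fold. Retn (resistin) fell 9.22-fold, Lpl (lipoprotein lipase) 5.82-fold and Cidec, a fat droplet fusion protein gene, 3.01-fold. The call of Cidec was lost without any single array other than high-calcium tumor replicate 3 (adjusted p 0.0669 to 0.093). Within slide 2, without replicate 3, the difference was larger in each, -5.34 for Adipoq and -4.21 for Retn. Plin1 and Retn were near background on 1 high-calcium tumor array, and their normexp differences were -1.44 and -1.51. The summed signal of the 14 fat cell genes was 5.0 to 5.46 against 6.26 to 6.36 on the DMH arrays. The high-calcium arrays without tumors were low as well, at -6.35, -4.01 and -4.96 for Adipoq. Whether the amount of attached fat differed was not tested.

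**Figure D2:**
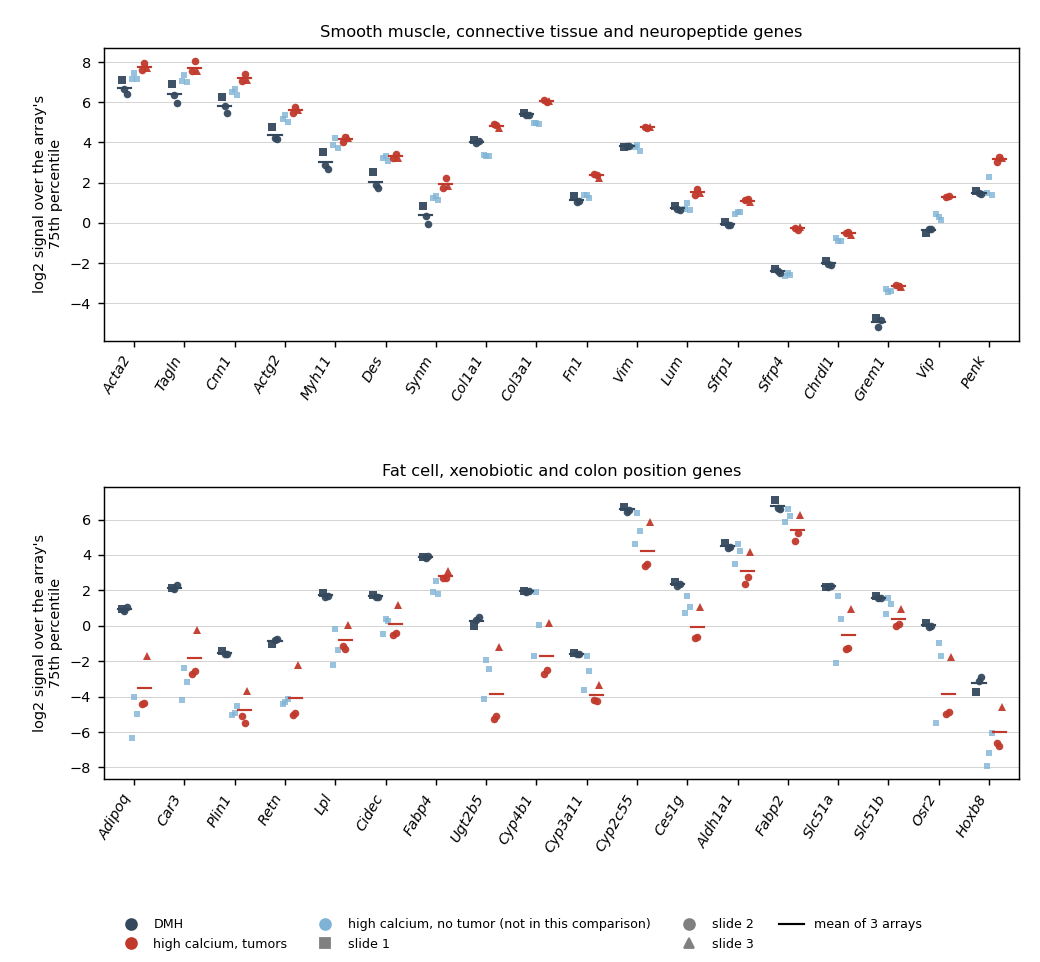
Levels of smooth muscle, connective tissue and neuropeptide genes (top) and of fat cell, xenobiotic and colon position genes (bottom) on each array, as log2 signal over the array's 75th percentile; colour gives the group, marker shape the slide, and lines the means of 3 arrays (2 for Vip with tumors). In the bottom panel the single high-calcium tumor array on slide 3 lies between the other 2 and the DMH arrays for most genes, as for Adipoq at -1.71 against -4.41 and -4.36. Osr2 in that panel is outside the position list.

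A set of xenobiotic genes, and Osr2 and Hoxb8 described below, showed the same spread among the high-calcium tumor arrays. Ugt2b5, a glucuronosyltransferase gene, was at -5.25, -5.11 and -1.19 against -0.01, 0.31 and 0.49 and fell 17.3-fold (adjusted p 0.0224). Cyp4b1, a cytochrome P450 gene, was at -2.7, -2.52 and 0.16 against 1.99, 1.93 and 1.94 and fell 12.5-fold (adjusted p 0.0272). Cyp2c55, a P450 that oxidises arachidonic acid and is abundant in the colon, fell 5.01-fold, from 6.71, 6.44 and 6.55 to 3.39, 3.47 and 5.88. In these 3 genes replicate 3 lay 2 or more log2 units above the other high-calcium tumor arrays yet below every DMH array. Their calls were fragile: Cyp4b1, Cyp2c55 and Cyp3a25 lost theirs without any 1 of the other 5 arrays (adjusted p 0.0591 to 0.117), and Ugt2b5 without high-calcium tumor replicate 1 or 2 or DMH replicate 2 or 3 (adjusted p 0.0591 to 0.0739). Ugt2b36 and Ugt2b38 fell 6.96-fold and 14.5-fold, Ces1g, a carboxylesterase gene, 5.46-fold and Cyp3a11 5.1-fold. Ugt2b and Cyp3a genes are close paralogs, so their probes may share signal. After normexp the differences of Ugt2b5, Ugt2b36, Ugt2b38 and Cyp3a11 were -2.38, -0.99, -1.45 and -1.27, all still called. Cyp3a25 fell 17-fold over all arrays but was not called within slide 2 (adjusted p 0.054; 0.00367 on those arrays alone), and its normexp difference was -1.3. Cyp2e1, a P450 that oxidises products of DMH, was well above background on none of the high-calcium tumor arrays and was at least 5.87-fold lower (-5.93, -6.76 and -5.32 against -2.93, -2.72 and -2.52; adjusted p 0.00239). Its normexp difference of -0.87 is smaller than that bound. Cyp1b1 was likewise at least 2.19-fold lower (adjusted p 0.000583), with a normexp difference of -0.27 that was not called (adjusted p 0.491). Altogether 13 of 34 xenobiotic genes fell and 6 rose, against 12 and 0 with median centring.

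Position along the colon is marked by Hox transcription factor genes, and these split. Osr2, named for its large fall, is not in the position list. Osr2, a zinc finger transcription factor gene, was at -4.97, -4.88 and -1.77 against 0.18, -0.09 and 0.0, a 15-fold fall that only just passed (adjusted p 0.0499). It lost its call without any 1 array other than high-calcium tumor replicate 3 (adjusted p 0.103 to 0.141), and its normexp difference was -2.17. Hoxb8 fell 6.75-fold (-6.6, -6.79 and -4.59 against -3.73, -3.09 and -2.89; adjusted p 0.0166), but lost its call without high-calcium tumor replicate 1 or 2 or DMH replicate 3 (adjusted p 0.0562 to 0.057). With normexp its difference was -0.58 and not called (adjusted p 0.122). Most HoxD genes of the hindgut went the other way, but Hoxd12 did not pass (0.19, adjusted p 0.916 in a fit of every probe). In that fit second probes of Hoxd13 and Hoxd9 were higher by 0.58 and 0.4 (adjusted p 0.00464 and 0.521). Hoxd13, the last gene of its cluster, rose 2.48-fold (3.28, 3.17 and 2.93 against 1.54, 2.09 and 1.83; adjusted p 0.0018), and Hoxd10 rose 2.7-fold (1.51, 1.29 and 1.39 against -0.07, 0.12 and -0.18; adjusted p 0.000815). Hoxd11 and Hoxd9 rose 1.88-fold and 1.67-fold, but not with median centring (adjusted p 0.106 and 0.0574). Normexp differences were 0.56 and 0.39, the latter not called, and Hoxd11 lost its call without high-calcium tumor replicate 1 or 2 (adjusted p 0.0567 and 0.0558). On the high-calcium tumor arrays replicate 3 did not stand apart in the HoxD genes that rose, unlike in Osr2 and Hoxb8. Of 16 posterior Hox and position genes 6 rose and 3 fell, 2 and 3 with median centring. Whether the stretch of colon sampled differed between the groups was not tested.

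Circadian clock genes moved in both directions. The clock is a loop in which the activators CLOCK and ARNTL bind E-box sequences and switch on their own repressors, the Per and Cry genes, and the output factors Dbp, Tef and Hlf, while ROR and REV-ERB proteins act on Arntl. Promoters of the largest rise, of the first Per gene and of the largest fall are shown with motif matches in capitals. The matches are E-boxes (CACGTG) in Ciart and Per1. In Arntl they are to TNGGTCA, a looser pattern than the core that ROR and REV-ERB recognise, since N stands for any base. A second RefSeq promoter of Arntl, not shown, also held TAGGTCA 30 bases after its start. The stretches shown are of RefSeq promoters of GRCm38.p6, read in the direction of transcription. They are chr3:95882256-95882355 (minus strand) for Ciart, chr11:69098736-69098835 (plus strand) for Per1 and chr7:113207228-113207327 (plus strand) for Arntl.
Ciart: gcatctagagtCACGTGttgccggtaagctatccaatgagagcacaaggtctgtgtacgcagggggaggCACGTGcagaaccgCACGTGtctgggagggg
Per1: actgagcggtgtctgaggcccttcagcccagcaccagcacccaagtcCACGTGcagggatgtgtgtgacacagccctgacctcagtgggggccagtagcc
Arntl: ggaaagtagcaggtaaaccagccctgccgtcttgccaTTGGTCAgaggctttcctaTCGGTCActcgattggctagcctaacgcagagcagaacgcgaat
The E-box letters, searched on both strands over 250 bases before to 50 after the start, were present in 7.15% of 32851 promoters and in 5 of the 17 clock genes with a promoter in the table, 3 of which rose. The TNGGTCA letters were in 10.96% of promoters and in 5 of the 17, of which 3 rose and 2 fell. A match is a description of the letters only.

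Ciart, a repressor of the CLOCK and ARNTL pair, gave the largest rise among genes well above background on at least 1 array of each group. It was at -1.37, -1.51 and -1.51 in the high-calcium tumor arrays and -6.99, -3.68 and -4.63 in the DMH arrays (3.63 ± 0.75; 12.4-fold; adjusted p 0.00804). DMH replicate 1 was near background, and the difference was 2.71 within slide 2 and 1.48 after normexp. Per2 rose 3.72-fold (1.43, 1.37 and 1.44 against -0.44, -0.31 and -0.7; 1.9 ± 0.1, adjusted p 4.41e-05), Per3 2.95-fold (-2.45, -2.5 and -2.33 against -3.93, -4.01 and -4.04) and Per1 2.33-fold (1.19, 1.17 and 1.08 against 0.02, -0.06 and -0.18). The output factors followed: Tef rose 3.1-fold (adjusted p 0.000125), Dbp 2.91-fold (adjusted p 0.000538) and Hlf 2.76-fold (adjusted p 0.00338). Cry2, a repressor, and Nr1d2, a nuclear receptor gene of the REV-ERB family, rose 1.98-fold and 1.99-fold. On the activator side, Arntl fell 2.66-fold, from 0.34, 0.18 and 0.29 to -1.13, -1.21 and -1.09 (-1.41 ± 0.06; adjusted p 3.07e-05). Npas2, which can replace CLOCK, fell 2.44-fold (adjusted p 9.59e-05), and Nfil3, a repressor at D-box sequences, fell 1.98-fold (adjusted p 0.00284). Clock and Bhlhe40 did not pass, with differences of 0.19 and 0.17, nor did Nr1d1 at 0.28, whose probes disagree in sign. In a fit of every probe, another Clock probe was higher by 0.95 (adjusted p 0.0172). The second probes of Per2 and Cry2 were higher by 0.46 and 1.1 there but not called (adjusted p 0.51 and 0.203). Normexp lowered the differences of the dim genes Per3, Hlf and Npas2 to 0.74, 0.74 and -0.77, all still called.

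All 13 clock calls held within slide 2 and with median centring. The summed signal of the 20 clock genes was 5.61 to 5.67 on the high-calcium tumor arrays and 4.64 to 4.89 on the DMH arrays. Side by side, the high-calcium arrays without tumors had Per2 at 1.78, 1.67 and 1.77 and Per3 at -1.97, -1.9 and -1.89, as high as the tumor arrays or higher, whereas Ciart at -5.63, -4.91 and -4.83 lay with the DMH arrays. No hour of tissue collection is given in the labels, and its part in these differences was not tested.

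**Figure D3:**
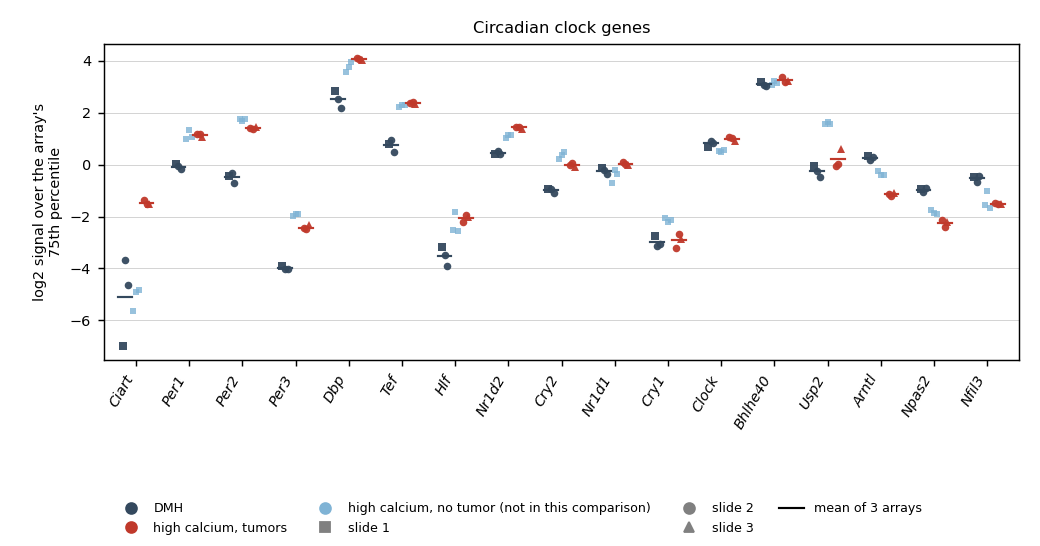
Levels of 17 circadian clock genes on each array, as log2 signal over the array's 75th percentile, with colour for the group, marker shape for the slide and lines for the means of 3 arrays. The 9 genes on the left, from Ciart to Cry2, are higher in the high-calcium tumor arrays; Arntl, Npas2 and Nfil3 on the right are lower, and those between did not pass.

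Chemokines that draw neutrophils fell steeply. Cxcl5, whose product binds the neutrophil receptor CXCR2, was at -3.24, -3.26 and -2.82 in the high-calcium tumor arrays and 0.87, 0.88 and 1.04 in the DMH arrays. The fall was 16.4-fold (-4.04 ± 0.15; adjusted p 1.06e-05), and all 3 replicates of each group lay within 0.5 log2 units. The neighbouring chemokine genes Cxcl1, Cxcl2 and Cxcl3 lie in 1 cluster on chromosome 5, and their promoters are shown with matches to the core of a kappa-B site (GGGNNTTTC, either strand) in capitals. They are RefSeq promoters of GRCm38.p6 on the plus strand, at chr5:90891120-90891219, chr5:90903766-90903865 and chr5:90785982-90786081.
Cxcl1: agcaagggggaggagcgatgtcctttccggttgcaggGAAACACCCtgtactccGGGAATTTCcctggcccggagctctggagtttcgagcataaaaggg
Cxcl2: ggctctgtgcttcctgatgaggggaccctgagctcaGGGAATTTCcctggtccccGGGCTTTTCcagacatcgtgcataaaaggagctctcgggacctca
Cxcl3: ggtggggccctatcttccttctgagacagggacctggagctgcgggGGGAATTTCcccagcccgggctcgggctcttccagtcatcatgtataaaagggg
These letters were in 4.36% of all 300-base promoters and in 10 of the 23 inflammation genes in the table. Of those 10 genes 6 fell and 3 rose, the rises being those of Nfkbia, Tnfaip3 and Il1rn. Cxcl1 fell 3.11-fold (-4.23, -4.31 and -4.74 against -2.97, -2.75 and -2.65; adjusted p 0.0166), but its adjusted p was 0.0578 within slide 2 (0.00599 on those arrays alone), 0.055 without DMH replicate 3 and 0.0958 after normexp, where the difference was -0.56. Cxcl2 and Cxcl3 were well above background on none of the high-calcium tumor arrays. Cxcl3 was at least 3.23-fold lower (-7.9, -7.21 and -7.57 against -3.82, -3.6 and -3.34; adjusted p 0.000186) and Cxcl2 at least 2.46-fold lower (adjusted p 0.000145). Their normexp differences of -0.67 and -0.39 lie below those bounds and were not called.

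Several neutrophil protein and cytokine genes fell with the chemokines. The summed signal of the 26 listed inflammation genes, set mostly by the brightest of them, was higher instead. It was 7.56 to 7.6 on the high-calcium tumor arrays and 7.15 to 7.33 on the DMH arrays. S100a9, a subunit of the calprotectin complex of neutrophils, was at -1.26, -1.23 and -1.47 against 1.29, 1.3 and 1.36 and fell 6.22-fold (-2.64 ± 0.09; adjusted p 8.37e-06). Its partner S100a8 fell 4.58-fold (-3.39, -3.67 and -3.96 against -1.65, -1.37 and -1.42; adjusted p 0.000217). Lcn2, an iron-binding antibacterial protein gene of inflamed epithelium, fell 3.42-fold (adjusted p 0.0003). The cytokine genes Il1b and Tnf fell 2.43-fold and 1.67-fold, and Ptgs2, which encodes the inducible cyclooxygenase, fell 2.48-fold (-2.97, -2.71 and -3.03 against -1.87, -1.5 and -1.41; adjusted p 0.000591). Reg3g, an antibacterial lectin gene, fell 1.95-fold. Against this, Saa3, an acute phase gene, rose 1.59-fold (adjusted p 0.0027), and the NF-kappa-B inhibitor genes Nfkbia and Tnfaip3 rose 1.25-fold and 1.17-fold. The rises of Saa3, Nfkbia and Tnfaip3 did not hold with median centring (adjusted p 0.0629, 0.563 and 0.777). Those of Nfkbia and Tnfaip3 were also lost without high-calcium tumor replicate 1 or 2 or DMH replicate 2 or 3 (adjusted p 0.0529 to 0.0923). Saa1 was higher by 0.75, and by 0.8 on its other probe (adjusted p 0.00104 and 0.000529 in a fit of every probe). Among the 5 rises in the inflammation list 1 held with median centring. Il1rn, whose probes disagree in sign, lost its call without high-calcium tumor replicate 1 or 2 (adjusted p 0.0716 and 0.0662). After normexp S100a8, Lcn2 and Ptgs2 differed by -1.08, -1.12 and -0.74, all still called. Orm2, an acute phase protein gene, was at least 2.59-fold lower (adjusted p 0.000796) but differed by -0.53 after normexp and was not called.

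Several secreted matrix metalloproteinase genes fell while the inhibitor gene Timp1 rose. The 4 of a cluster on chromosome 9 that fell are shown by a stretch of promoter with the AP-1 motif (TGANTCA) in capitals. The RefSeq promoters are of GRCm38.p6, plus strand, at chr9:7272432-7272531 for Mmp13, chr9:7502232-7502331 for Mmp10, chr9:7691980-7692079 for Mmp7 and chr9:7445729-7445828 for Mmp3.
Mmp13: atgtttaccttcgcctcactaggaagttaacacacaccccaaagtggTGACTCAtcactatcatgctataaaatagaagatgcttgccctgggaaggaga
Mmp10: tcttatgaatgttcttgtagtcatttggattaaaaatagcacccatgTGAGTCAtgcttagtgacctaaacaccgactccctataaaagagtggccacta
Mmp7: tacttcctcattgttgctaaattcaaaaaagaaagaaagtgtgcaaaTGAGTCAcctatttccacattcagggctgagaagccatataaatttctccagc
Mmp3: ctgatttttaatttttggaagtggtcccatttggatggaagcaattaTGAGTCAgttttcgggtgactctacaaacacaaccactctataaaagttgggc
The motif lay 35 to 63 bases before the start in these 4 and was found in no other of the 11 listed genes with a promoter in the table, against 7.81% of all promoters. Mmp13, a collagenase, was at -3.52, -2.95 and -3.52 against -0.28, -0.21 and -0.01 and fell 8.94-fold (-3.16 ± 0.17; adjusted p 5.87e-05). Mmp10, a stromelysin, was at -0.3, -0.38 and -0.33 against 2.6, 2.48 and 2.55 and fell 7.36-fold (adjusted p 4.93e-06). Mmp7, the epithelial matrilysin that is abundant in intestinal tumors, was at 1.48, 1.38 and 1.31 against 3.07, 3.04 and 3.13 and fell 3.21-fold (adjusted p 8.37e-06). Mmp3 fell 1.57-fold, or by -0.37 and without a call after normexp, and Mmp9, a gelatinase of neutrophils and macrophages that lies elsewhere, fell 2.61-fold (adjusted p 0.000125). Timp1, the inhibitor, rose 2.23-fold (1.09, 0.98 and 0.94 against -0.11, -0.19 and -0.18; adjusted p 3.61e-05), and Timp3 rose 1.62-fold. In Mmp10, Mmp7 and Timp1 the 3 replicates of each group lay within 0.2 log2 units. Of 14 protease and inhibitor genes 7 fell and 5 rose, 5 and 2 with median centring.

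**Figure D4:**
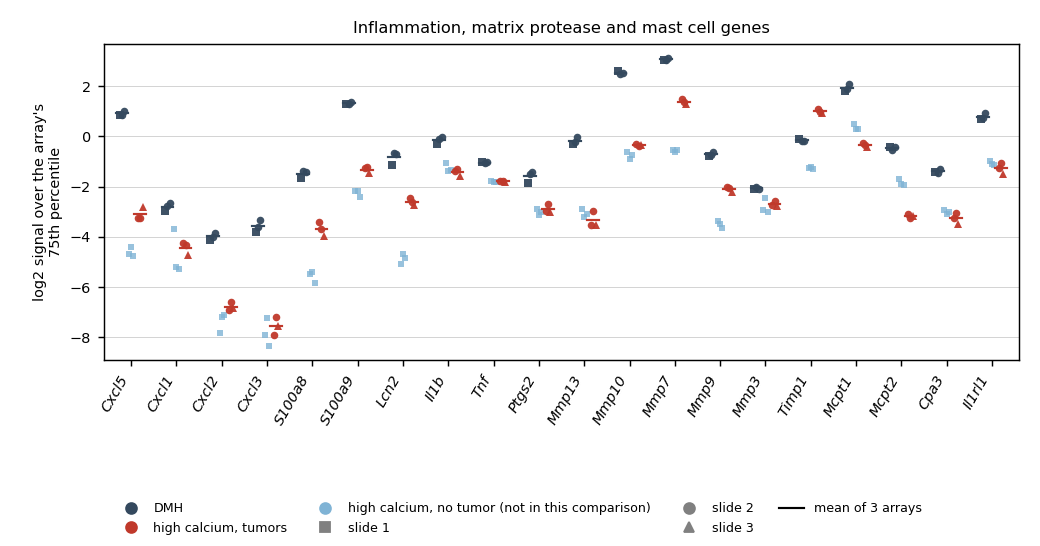
Levels of chemokine, inflammation, matrix protease and mast cell genes on each array, as log2 signal over the array's 75th percentile; colour gives the group, marker shape the slide and lines the means of 3 arrays. Every gene but Timp1 is lower in the high-calcium tumor arrays than in the DMH arrays, and Timp1 is higher at 0.94 to 1.09 against -0.19 to -0.11.

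Some mast cell genes, 5 of the 10 tested, were lower by several fold. Mcpt2, a protease of mucosal mast cells, was at -3.1, -3.25 and -3.17 against -0.41, -0.55 and -0.44 and fell 6.54-fold (-2.71 ± 0.08; adjusted p 5.66e-06). Mcpt1, its mucosal partner, fell 4.82-fold (adjusted p 1.79e-05). Cpa3, the mast cell carboxypeptidase gene, fell 3.65-fold, Mcpt4 2.5-fold and Hdc, which makes histamine, 2.32-fold. The Mcpt genes are close paralogs, so probes may share signal. Cpa3 and Hdc differed by -0.99 and -0.65 after normexp, both still called. The other listed members did not follow. Cma1 rose by 0.35, although no mast cell gene rose with median centring. Gata2, Tpsb2, Fcer1a and Ms4a2 did not pass, with differences of 0.01, -0.24, -0.55 and -0.17. Il1rl1, the interleukin-33 receptor gene of mast cells and other immune cells, was picked after its values were seen and fell 4.19-fold (-1.26, -1.07 and -1.49 against 0.7, 0.74 and 0.95; adjusted p 6.48e-05). The summed signal of the 10 mast cell genes was 2.21 to 2.35 against 3.18 to 3.43 on the DMH arrays. Other immune cells shifted less. Among B and plasma cell genes Cd79a, part of the B cell receptor, fell 1.86-fold (-2.03, -1.92 and -1.94 against -0.96, -1.11 and -1.12; adjusted p 0.000216), and Mzb1, a plasma cell chaperone gene, fell 1.79-fold. Their summed signal was 6.48 to 6.69 against 7.02 to 7.07. Of 17 macrophage, monocyte and dendritic cell genes 11 fell and 1 rose, 4 and 0 with median centring. Adgre1, the F4/80 antigen gene, fell 1.62-fold (adjusted p 0.000457), while Csf1r, the macrophage growth factor receptor gene, did not pass at -0.13 (adjusted p 0.173). T and NK cell genes gave 3 rises in 16 and no fall, a share near the 21.3% of all features, and no call with median centring. Cd8a did not pass at -0.26, but its other probe differed by -0.97 (adjusted p 0.000175 in a fit of every probe). Ccl5, a chemokine of cytotoxic lymphocytes, rose 1.63-fold, although not with median centring (adjusted p 0.0732).

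Within the epithelium, single transport genes rose by several fold, among them subunits of the sodium channel ENaC and of the sterol exporter. Scnn1g, the gamma subunit of the aldosterone-regulated channel ENaC, was at -0.68, -0.81 and -0.97 against -3.63, -3.61 and -3.82 and rose 7.29-fold (2.87 ± 0.18; adjusted p 0.000104). The beta subunit gene Scnn1b rose 2.31-fold (-1.14, -1.34 and -1.2 against -2.41, -2.35 and -2.55; adjusted p 0.000186). The alpha subunit gene Scnn1a differed by 0.24 and did not pass (adjusted p 0.0663; its probes disagree in sign). Sgk1, a kinase that keeps ENaC at the membrane, rose 1.72-fold (adjusted p 0.00254). The arrays without tumors lay with the DMH arrays for Scnn1g, at -3.68, -3.46 and -2.94. After normexp Scnn1g and Scnn1b differed by 1.7 and 0.8, both still called. Abcg5, a subunit of the sterol exporter, rose 6.28-fold (2.86, 2.75 and 2.52 against -0.07, 0.43 and -0.17; 2.65 ± 0.17, adjusted p 9.36e-05). Its partner gene Abcg8 differed by 1.67 on the brighter of its 2 probes and did not pass (adjusted p 0.151), while the other probe was higher by 2.19 (adjusted p 0.000152 in a fit of every probe). In the bile acid and sterol export list 4 of 17 genes rose and 2 fell, beside 21.3% and 15.9% of all features. With median centring 1 rose and 2 fell. Aqp4, a water channel gene, fell 2.48-fold (adjusted p 0.000215) and Car4, a membrane carbonic anhydrase gene, 1.48-fold. Aqp8, the surface colonocyte water channel, and Krt20, a keratin of mature surface cells, did not pass (-0.18, adjusted p 0.556; 0.04, adjusted p 0.84). Of 24 absorptive colonocyte genes 5 rose and 8 fell, beside the same 21.3% and 15.9%. With median centring 2 rose and 6 fell.

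Goblet cells secrete mucus and antimicrobial proteins, and of 14 listed genes 5 rose and 5 fell, 0 and 4 with median centring. Ang4, an antimicrobial ribonuclease gene, was at 0.5, 0.51 and 0.74 against 4.25, 4.15 and 4.3 and fell 12.5-fold (-3.65 ± 0.09; adjusted p 4.45e-06). Ang2, a close copy whose probe may share signal, fell 9.29-fold. In the high-calcium arrays without tumors Ang4 stood at 4.59, 4.43 and 4.37, as high as in the DMH arrays. Retnlb, a goblet cell antimicrobial protein gene, fell 2.94-fold (2.76, 4.6 and 3.83 against 5.65, 5.29 and 4.92), but was not called within slide 2 (adjusted p 0.0872; 0.188 on those arrays alone), nor when DMH replicate 1 or 2 was left out (adjusted p 0.0699 and 0.0628). The goblet cell transcription factor gene Spdef fell 2.14-fold (adjusted p 0.000329), and Atoh1, which commits crypt cells to secretory fates, fell 1.63-fold (adjusted p 0.000936). Among other secreted products Clca1 fell, with a difference of -0.32 (adjusted p 0.00611), while Zg16, a mucus lectin gene, rose 1.39-fold and Tff3, the trefoil peptide gene, 1.36-fold, though neither with median centring (adjusted p 0.32 and 0.323).

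Cdx2, the homeobox gene that sets intestinal identity, fell 2.96-fold (2.31, 2.53 and 2.6 against 4.04, 3.98 and 4.11; -1.57 ± 0.08, adjusted p 4.41e-05). Its relative Cdx1 fell 1.52-fold (adjusted p 0.000646). Cdh1, the E-cadherin gene, rose 1.58-fold, although not with median centring (adjusted p 0.148). These were 3 of the 4 calls among 15 epithelial identity genes.

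Wnt pathway genes fell modestly in the mucosa. Wif1, a secreted Wnt inhibitor that the pathway itself induces, was at 0.91, 0.7 and 0.49 against 2.1, 2.16 and 2.38 and fell 2.85-fold (-1.51 ± 0.12; adjusted p 0.000217). Dkk2, another secreted inhibitor, fell 1.76-fold, Sp5, a direct target, 1.5-fold and Notum, which inactivates Wnt ligands, 1.41-fold. Myc, a growth target, fell 1.31-fold (2.48, 2.39 and 2.31 against 2.76, 2.78 and 2.79; adjusted p 0.0014), though not with median centring (adjusted p 0.0917). Lgr5, the crypt stem cell receptor, went up 1.48-fold (0.48, 0.37 and 0.31 against -0.24, -0.17 and -0.13; adjusted p 0.000598), again not with median centring (adjusted p 0.146). In total 11 of 21 Wnt and stem cell genes fell and 3 rose, 6 and 0 with median centring. Set beside these, the arrays without tumors were far lower in the feedback genes, with Sp5 at -2.17, -2.36 and -2.34 and Wif1 at -0.91, -1.05 and -1.11.

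Of 17 calcium and vitamin D genes 4 rose and 5 fell (1 and 2 with median centring), beside 21.3% and 15.9% of all features, and 8 did not pass. Trpv6, the apical calcium channel gene, was at -1.0, -1.09 and -1.28 against -0.17, -0.08 and -0.28 and fell 1.93-fold (-0.95 ± 0.1; adjusted p 0.000489). The arrays without tumors, on the same 3% diet, were lower still at -2.84, -2.97 and -2.73. S100g, which encodes calbindin-D9k, fell 1.34-fold (adjusted p 0.00834), but not with median centring (adjusted p 0.104). Neither Vdr, the vitamin D receptor gene, nor its target Cyp24a1 passed (0.11, adjusted p 0.228; -0.14, adjusted p 0.849). Camk2n1, an inhibitor of the calcium-dependent kinase CaMKII, rose 6.31-fold (-0.53, -0.7 and -0.45 against -4.08, -2.43 and -3.14; 2.66 ± 0.36, adjusted p 0.00142) and was as high in the arrays without tumors (-0.48, -0.73 and -0.46). Its normexp difference was 1.73. Casr, the calcium-sensing receptor gene, failed the filter on dim probes.

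**Figure D5:**
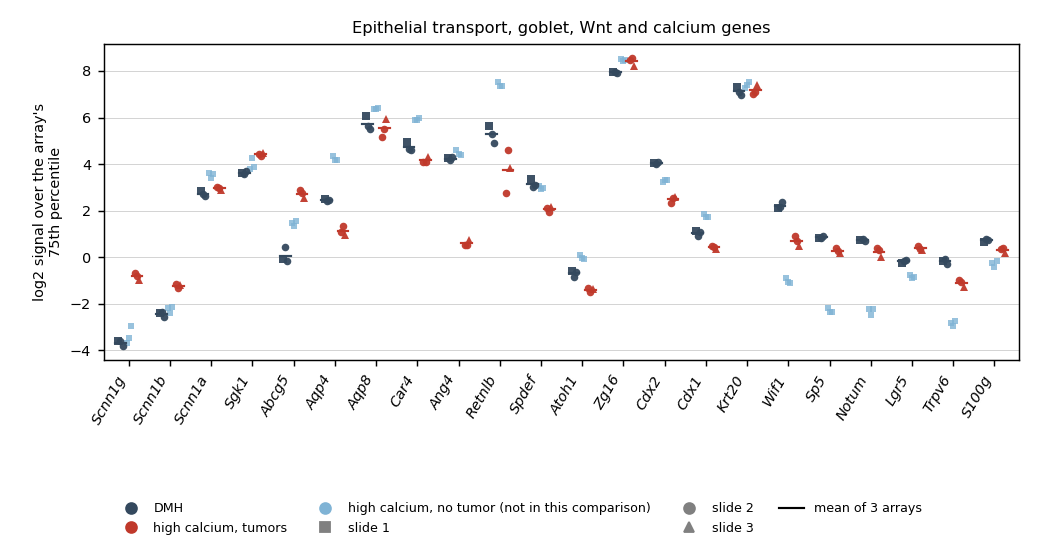
Levels of epithelial transport, goblet cell, Cdx, Wnt and calcium genes on each array, as log2 signal over the array's 75th percentile, with colour for the group, marker shape for the slide and lines for the means of 3 arrays. Scnn1g and Abcg5 are at least 2 log2 units higher in every high-calcium tumor array than in every DMH array, Ang4 is more than 3 lower, and Sp5, Wif1, Notum and Trpv6 are lowest in the arrays without tumors.

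Ligand genes of the ErbB receptors fell more often than they rose, in a list where 7 of 15 genes fell and 2 rose (6 and 0 with median centring). Nrg1, Ereg and Areg fell 2.37-fold, 2.09-fold and 1.66-fold (adjusted p 0.00086, 0.000948 and 0.00177), and Hbegf 1.56-fold. Nrg1 was well above background on only 1 high-calcium tumor array, and normexp differences were -0.23 for Nrg1, no longer called, -0.42 for Ereg and -0.45 for Areg. Of 15 enteroendocrine cell genes 4 rose and 5 fell, 2 and 5 with median centring. Nts, the neurotensin gene of these cells, was at -2.34, -2.21 and -1.53 against 1.3, 0.99 and 1.15 and fell 9.03-fold (adjusted p 0.0069). Gcg, the glucagon and GLP-1 precursor gene, fell 1.73-fold (adjusted p 0.000434), whereas Pyy, the peptide YY gene, rose 1.54-fold, but not with median centring (adjusted p 0.147).

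Proliferation genes were slightly lower. Top2a, the topoisomerase of dividing cells, fell 1.95-fold (-1.17, -1.31 and -1.34 against -0.49, -0.3 and -0.14; -0.96 ± 0.1, adjusted p 0.000525). Cdk1, the mitotic kinase, fell 1.51-fold, Rrm2, which makes DNA precursors, 1.54-fold and Mki67, the Ki-67 antigen, 1.29-fold. The fall of Mki67 was not called within slide 2 or with median centring (adjusted p 0.0545 and 0.132), but was on the slide 2 arrays alone (0.0353). None of 24 mitosis and 23 S phase genes rose, and 17 and 12 fell, 5 and 4 with median centring. Mitosis genes summed to 5.73 to 5.82 on the high-calcium tumor arrays and to 6.11 to 6.15 on the DMH arrays. Of 18 p53 targets 5 rose and 3 fell, beside 21.3% and 15.9% of all features. With median centring 1 rose and 1 fell. Pmaip1, which encodes the death protein NOXA, rose 1.88-fold (adjusted p 0.000288), while Cdkn1a, the cell cycle inhibitor, rose 1.19-fold and lost its call with median centring (adjusted p 0.665) and without any 1 array but DMH replicate 1 (adjusted p 0.0602 to 0.11). Brca1, a double-strand break repair gene, fell 1.48-fold, and 10 of 29 repair genes fell and 2 rose, 2 and 0 with median centring.

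Genes of lipid synthesis and oxidation fell more often than they rose. Acads, which oxidises short-chain fatty acids such as butyrate, fell 1.77-fold (adjusted p 0.000189), and Slc25a20, the mitochondrial carnitine carrier, 1.84-fold. No gene of 22 in fatty acid oxidation rose and 12 fell (7 with median centring). In cholesterol and fatty acid synthesis 16 of 23 fell and 1 rose, 6 and 0 with median centring. On the probes used each change was small: Mvk and Lss, enzymes of the sterol pathway, fell 1.42-fold and 1.36-fold. Dhcr7 and Hmgcs1 did not pass (0.13 and -0.0028). Their other probes differed by -1.21 and -0.97 (adjusted p 3.3e-05 and 0.000394 in a fit of every probe). Other Acaca probes were higher there, by 0.32 and 0.19, but not called. Sdha, a subunit of respiratory complex II, fell 1.51-fold (adjusted p 0.000484), in a list where 8 of 27 fell and 1 rose, 2 and 0 with median centring. The chaperone gene Hspa5 fell 1.66-fold (4.6, 4.56 and 4.37 against 5.15, 5.26 and 5.31; adjusted p 0.00048) and Xbp1, the unfolded protein response factor, 1.42-fold, whereas Herpud1, an endoplasmic reticulum degradation gene, rose 1.53-fold, though not with median centring (adjusted p 0.139). Bnip3, a mitophagy gene induced by hypoxia, rose 2.06-fold (adjusted p 0.000343), the largest of 8 rises and 3 falls among 22 glycolysis and hypoxia genes; with median centring there was 1 rise and no fall.

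Several of the largest changes lay outside the lists. Gzmc, a granzyme gene, rose 7.38-fold (-1.55, -1.78 and -1.66 against -4.92, -4.21 and -4.51; 2.88 ± 0.3, adjusted p 0.000499), although its normexp difference was 1.33. Casp14, a caspase of cornifying epithelium, rose 4.19-fold (0.46, 0.33 and 0.34 against -1.8, -1.47 and -1.8; adjusted p 4.62e-05), and Rnf152, a ubiquitin ligase gene, 3.83-fold (adjusted p 0.000206). Higd1b, Angptl7 and Car14 rose 3.9-fold, 4.0-fold and 4.75-fold (adjusted p 0.000134, 0.00283 and 0.0166). Their normexp differences were 0.65, no longer called, 1.21 and 1.2, and Car14 lost its call without DMH replicate 2 or 3 (adjusted p 0.0532 and 0.0592). Cys1, Prss34 and Depp1 rose 4.21-fold, 4.88-fold and 4.17-fold over all arrays with weaker footing. After normexp Prss34 differed by 0.09 and Cys1 by 0.72, neither called, and Depp1 was not called within slide 2 (adjusted p 0.121; 0.00547 on those arrays alone). Depp1 also lost its call without any 1 of the 6 arrays (adjusted p 0.0795 to 0.115), Cys1 without any high-calcium tumor array (0.0514 to 0.0685) and Prss34 without high-calcium tumor replicate 2 or DMH replicate 3 (0.0544 and 0.0575). Cys1 differed by 1.33 without DMH replicate 1. Among the falls, Apol10a, of the apolipoprotein L family, was at -4.19, -3.28 and -1.27 against 1.54, 1.19 and 1.34 (19.2-fold; adjusted p 0.014), with replicate 3 again nearest the DMH arrays. Slc30a10, a manganese exporter gene, fell 9.35-fold (adjusted p 0.00774) and Xlr3c 9.22-fold (adjusted p 0.0003), or by -1.38 and -1.28 after normexp. Zfp945 showed the largest fall of all, 23.9-fold (adjusted p 0.00168), on 1 of its 3 probes. Both others were higher, by 1.06 and 0.63 (adjusted p 0.000519 and 0.00116 in a fit of every probe), so no direction is given for the gene.

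Genes measured in only 1 of the groups give bounds. Ptx3, a pattern recognition protein gene, was at least 4.09-fold higher (-3.62, -2.81 and -3.75 against -7.15, -6.6 and -6.47; adjusted p 0.000279), Prg4, the lubricin gene, at least 4.3-fold, Cthrc1, a collagen-related matrix gene, at least 3.88-fold, Pnoc, the nociceptin precursor gene, at least 3.14-fold and Krt78, a keratin gene, at least 3.11-fold. Prg4 was not called within slide 2 (adjusted p 0.0722; 0.00765 on those arrays alone) or without high-calcium tumor replicate 1 or 2 or DMH replicate 1 (adjusted p 0.0513 to 0.0544). Slc22a29, an anion transporter gene, was at least 3.43-fold lower (-6.73, -6.77 and -6.43 against -3.9, -3.04 and -3.55; adjusted p 0.000152), Sprr2d, a cornified envelope gene, at least 3.73-fold and Defb37, a defensin gene, at least 3.34-fold. Defb37 lost its call without high-calcium tumor replicate 1 or 2 or DMH replicate 2 or 3 (adjusted p 0.0688 to 0.0818). The normexp differences, 0.42 to 0.75 among these rises and -0.51 to -0.48 among these falls, all lie below the bounds.

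The 2 high-calcium groups shared diet and carcinogen and differed in labelled tumor status, and 47.7% of features differed between them. No slide held both, so slide and tumor status cannot be told apart in that comparison beyond a fit that borrows the DMH arrays. Timp1 was at 1.09, 0.98 and 0.94 with tumors and -1.27, -1.2 and -1.29 without, Mmp7 at 1.48, 1.38 and 1.31 and -0.55, -0.6 and -0.55, and Trpv6 at -1.0, -1.09 and -1.28 and -2.84, -2.97 and -2.73. For Mmp7 the DMH arrays were highest and the arrays without tumors lowest, and for Timp1 the tumor arrays were highest. Mcpt2, at -1.7, -1.88 and -1.94 without tumors, and Cdx2, at 3.25, 3.31 and 3.32, lay between the tumor and the DMH arrays.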

How the data were processed

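Labelled RNA from 9 samples was hybridised to 1-colour Agilent mouse arrays, 1 sample per array. The deposited intensity values are processed signals of Agilent Feature Extraction 10.5.1.1, per the file headers, and the sources used here do not give its background method. A deposited whole-series table holds log2 values that differ from log2 of the same signals by 1 unstated constant per array (column medians 2.36 to 2.80) and served as an alternative. Here spots flagged as outliers were dropped, spots of a probe averaged, log2 taken and each array's 75th percentile over non-control probes subtracted. Probes well above background on all 3 arrays of a group were kept, and the brightest kept probe stood for a gene; symbols came from matching each probe's accession to a RefSeq gene table (GRCm38.p6), which named 25097 of 41174 probes and left 6902 of 21095 features without a symbol. limma 3.58.1 (R 4.3.3) fitted 1 mean per group over all 9 arrays, tested on simulated data, with Benjamini-Hochberg adjustment over all features. No spot was saturated, 61.1% to 73.8% of probes per array were well above background, and the number of arrays limits the precision. Where all arrays of a group were dim, the fold is a bound: the bright group's mean against the dim group's mean of, per array, the higher of the gene's signal and the lowest signal well above background, on normalised log2 values. Alternatives covered slide, replicate number, background correction, scaling, filters, probes, fit and each array left out; the closing section gives their effect.

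The members and gene lists were chosen with earlier results of these data known. Named are the 15 largest rises and 15 largest falls, the 6 largest bounds each way, up to 5 called members of each list with others needed for their role, and a fixed panel (of which Casr and Axin2 failed the filter, and Ccnd1 and Muc2 had no named probe); Penk, Sfrp1 and Il1rl1 were added after their values were seen. Some genes that this rule names are not reported here.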

Additional observations from a re-analysis of the deposited data

How the results depend on the processing

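Over all features 7839 were called; normexp gave 4168, median centring 2215 (838 higher, 1377 lower), 2403 (950 higher, 1453 lower) came from the deposited log2 values, a 2-fold minimum 805, and an unadjusted p under 0.05 with the 2-fold minimum 883. Leaving out 1 array gave 6021 to 8147 calls. Among the gene lists 404 genes were called, 196 with median centring, 205 in the deposited table and 327 to 398 with 1 array left out. For high calcium with against without tumors, 10058 were called, 6463 with slide as a block and 8315 to 12319 with 1 array left out. Equal replicate numbers did not deviate together (high-calcium tumor and DMH replicates 1 correlated at -0.57, replicates 2 at 0.22 and replicates 3 at -0.55), so the numbers name arrays only. With the replicate block 6457, 347 list genes and 8850 were called, and no named gene changed direction. Of 165 called genes that the text names, 110 were called under every alternative run. The sign turned in Zfp945, to 0.50 in the deposited table and 0.63 on probes well above background on all 6 arrays, and in genes that did not pass: Krt20 (-0.0603 with quantile normalization, -0.0841 with median centring, -0.0868 in the deposited table, -0.0131 with array weights, -0.0726 to 0.128 with 1 array left out), Vdr (-0.0174 with median centring and -0.0201 in the deposited table), Scnn1a (-0.14 with probes averaged), Nog (-0.0069 with the slide block and on slide 2 alone, -0.0375 with quantile normalization, -0.0244 with median centring, -0.182 to 0.292 with 1 array left out), Cyp24a1 (0.0694 after normexp, -0.73 to 0.23 with 1 array left out) and Aqp8 (-0.382 to 0.0041 with 1 array left out). The cause of these changes was not tested. Low signal limits the dim genes given as bounds, and 3 arrays a group, with 1 high-calcium tumor array and 1 DMH array off the shared slide, limit the rest.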

Other observations

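2 intestinal defence genes outside the lists are given here because of their values, which had been seen. Itln1, an intestinal lectin gene, was at 2.5, 2.47 and 2.52 in the high-calcium tumor arrays, 4.98, 4.88 and 4.97 in the DMH arrays and 5.23, 5.04 and 5.06 in the high-calcium arrays without tumors (relative log2 signal; adjusted p 4.45e-06 against DMH, limma). Mptx1, a mucosal pentraxin gene, was at 3.97, 3.99 and 3.79, 6.55, 6.4 and 6.46 and 7.62, 7.4 and 7.49 in the same order (adjusted p 8.37e-06). For both genes each high-calcium tumor array lay below each DMH array and each array without tumors.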
